A study of Mus musculus with 11 samples.

Results

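Microglia sorted from the brains of mice that lack Tyrobp, carry 1 mutant allele of Inpp5d and develop amyloid plaques were compared with microglia from plaque-bearing mice with neither mutation. The 3 libraries of the compound mutant, Tyrobp-/-;Inpp5d+/-;NLGF, were set against the 3 NLGF libraries, which are 6 of the 11 libraries of the series. Of the 55401 genes in the deposited table, 20390 had adequate counts and were tested. NLGF mice carry App knock-in alleles with familial Alzheimer's disease mutations. By the sample labels all mice of the study carry these alleles, are of the C57BL/6 strain and are aged 9 to 10 months, so plaque-free mice take no part in the comparison. The other genotypes were Tyrobp-/-;NLGF, with 2 libraries, and Inpp5d+/-;NLGF, with 3. Live CD11b+/CD45+ cells were collected as microglia, a gate that other myeloid cells can also pass. The labels do not say which cells lost Tyrobp or Inpp5d, nor whether a library came from 1 animal.

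Tyrobp encodes DAP12, a small membrane adaptor that carries the signal of TREM2, a microglial receptor for lipids and lipoproteins, to the kinase SYK and to phosphoinositide 3-kinase. Inpp5d encodes SHIP1, a phosphatase that removes a phosphate from the lipid made by phosphoinositide 3-kinase and so dampens such signals. Around plaques, microglia pass from a homeostatic state to the disease-associated microglia (DAM) state, whose later stage 2 needs TREM2. Stage 2 cells express secreted proteins, lipid-handling genes and lysosomal genes. The series asked how a reduced dose of Inpp5d bears on the loss of TREM2 signalling.

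The 6 libraries held 29490567 to 66637052 counts and 20203 to 22582 detected genes, and 3 counts corresponded to 0.0477 to 0.1 CPM (counts scaled to a common library total). All levels below are CPM on library sizes scaled by TMM, in the order of replicates 1, 2 and 3, and all differences are log2 fold changes of the compound mutant minus NLGF. A gene was called where the Benjamini-Hochberg adjusted p of edgeR's quasi-likelihood test was below 0.05. Title numbers do not intermix between Tyrobp genotypes, so the Tyrobp genotype and litter or handling cannot be told apart. All 12 microglia and macrophage markers were detected in both groups, with summed levels of 51466 to 57504 CPM in NLGF and 55818 to 58335 in the compound mutant. The neutrophil list summed to 0.737 to 227 CPM in NLGF and 241 to 9596 in the compound mutant, with all 12 members positive and Retnlg at 0 counts in NLGF. The 16 monocyte markers summed to 37.7 to 69.6 and 152 to 1492 CPM. None of these neutrophil and monocyte markers was called, although the list medians were 5.21 and 3.88, beside 0.03 over all genes. Higher without overlap were 5 of the 12 and 10 of the 16, beside 9.04% of all genes. Of 12 border macrophage markers 11 were positive, with a median of 0.90 and none called. Neuron markers summed to 4.34 to 7.22 CPM in NLGF and 6.24 to 26.5 in the compound mutant, where replicate 1 was highest. Compound replicate 1 also stood apart on the second axis of multidimensional scaling, at -3.85 against 0.0138 to 1.08 for the other 5 libraries.

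**Figure D1:**
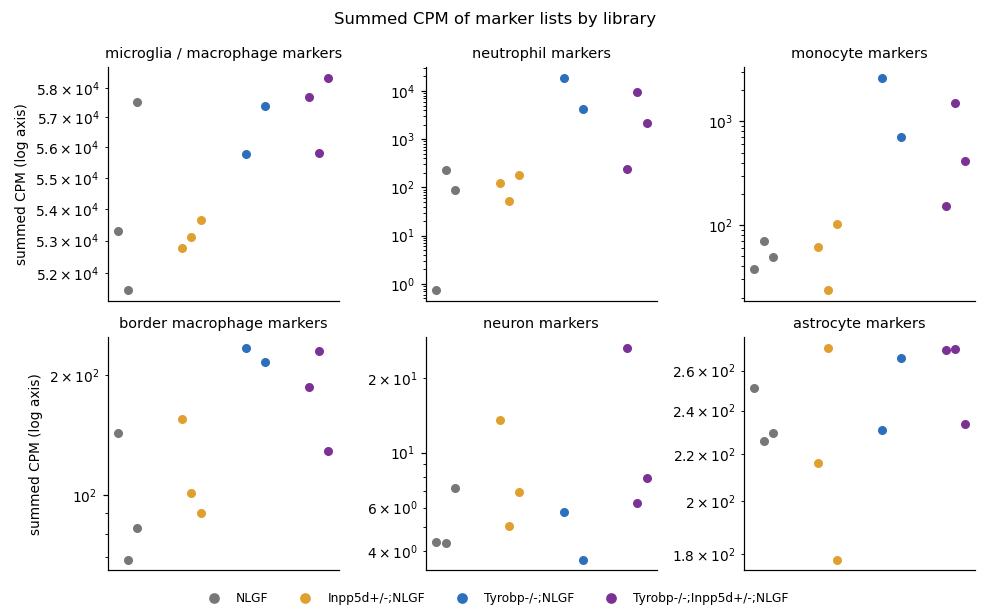
Summed CPM, on a log axis, of 6 marker lists in each of the 11 libraries, 1 point per library in the order of replicates. In the neutrophil panel the compound mutant ranges from 241 to 9596 CPM and NLGF from 0.737 to 227, while the microglia and macrophage sums of the 6 libraries lie between 51466 and 58335.

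The targeted genes were read first. On GRCm38, Tyrobp (ENSMUSG00000030579.10, chromosome 7, 30413760 to 30417585) had 1999, 2022 and 2560.1 CPM in NLGF and 3.22, 8.39 and 3.88 in compound mutant libraries (log2 fold change -8.72, SE 0.406, adjusted p = 3.09e-05). Every compound library had a trace of Tyrobp reads. Hcst encodes DAP10, a second adaptor that pairs with TREM2, and its gene (ENSMUSG00000064109.8, chromosome 7, 30417712 to 30419854) lies beside Tyrobp. It was at 44, 48.7 and 46.5 CPM in NLGF and 4.62, 12.4 and 6.09 in the compound mutant and fell with no overlap (log2 fold change -2.59, SE 0.356, adjusted p = 0.0115). Inpp5d (ENSMUSG00000026288.14, chromosome 1, 87620312 to 87720507) was at 436, 205 and 313 CPM in NLGF and 189.8, 259.9 and 259.5 in the compound mutant. The Inpp5d values overlapped and did not pass (log2 fold change -0.43, 95% interval -0.99 to 0.14, adjusted p = 0.518). The receptor gene Trem2 was at 2004, 2510.1 and 2688 CPM in NLGF and 2128, 2007 and 2248 in the compound mutant (log2 fold change -0.17, 95% interval -0.43 to 0.08, adjusted p = 0.565). App, which holds the knock-in mutations, was at 95.8, 77.4 and 77.6 and 71.7, 80 and 83.8 CPM, with overlapping values and an adjusted p of 0.903. A 38-gene TREM2 signalling list includes SYK, phospholipase C and phosphoinositide 3-kinase genes. Besides Tyrobp and Hcst, none of its other 36 genes was called. Over all genes 0.873% were called, so the count of 0 is near that share. The median over the list was 0.12 beside 0.03 over all genes. In the whole list DESeq2 called 3 higher and 3 lower, and limma-voom or a stricter filter called 1 higher and 2 lower.

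Across all genes, 178 were called, or 0.873% of those tested. Higher calls numbered 49 (0.24%) and lower calls 129 (0.633%). Libraries of the groups did not overlap for 1844 genes that were higher (9.04%) and 1819 that were lower (8.92%), and 2658 genes (13%) had an unadjusted p below 0.05. The lower calls included genes for secreted proteins, lysosomal proteases and lipid enzymes, and the higher calls included immediate early genes and 4 homeostatic microglial genes. The total of 178 was 62 without NLGF replicate 2, 103 without NLGF replicate 3, 81 and 75 without compound replicates 1 and 2, and 118 and 113 without Tyrobp-/-;NLGF replicates 1 and 2. In these bulk libraries, fewer cells of a type and less RNA per cell cannot be told apart.

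**Figure D2:**
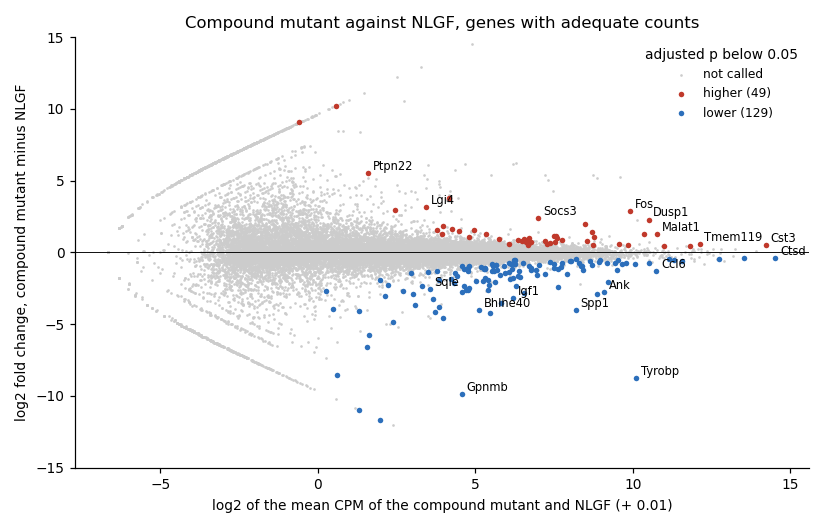
Log2 fold change of the compound mutant minus NLGF against the log2 mean CPM of both groups, 1 point per tested gene. The 129 lower genes (blue) and 49 higher genes (red) were called at an adjusted p below 0.05, and Tyrobp and Gpnmb lie lowest of the labelled genes.

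Most genes of DAM stage 2 fell. Of 25 members, 20 were called lower, beside 0.633% of all genes, and none higher. All 25 had negative fold changes and 23 were lower without overlap between groups, beside 8.92% of all genes. The median was -1.75 beside 0.03 over all genes tested. The summed level of the list went from 29361 to 30339 CPM in NLGF to 16884 to 19496 in the compound mutant. Without the 2 libraries with most S100a8, which are Tyrobp-/-;NLGF replicate 1 and compound replicate 2, 10 members were called and the median was -1.66. With a neutrophil covariate 9 were called and the median was -1.45, and without compound replicate 1, the library with most neuron RNA, 14 were called and the median was -1.69. Leaving out any other single library gave 12 to 22 calls, with 12 without NLGF replicate 2 and without compound replicate 2.

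Several members of this list encode secreted proteins. Spp1, which encodes osteopontin (ENSMUSG00000029304.14, chromosome 5, 104435118 to 104441050), was at 646, 502 and 499 CPM in NLGF and 25.5, 34.5 and 44.1 in the compound mutant (log2 fold change -3.98, SE 0.224, adjusted p = 9.19e-05). Every NLGF library was far above every compound library. Igf1, an insulin-like growth factor, was at 144, 147 and 107 and 7.29, 21 and 15.3 CPM (log2 fold change -3.19, SE 0.336, adjusted p = 0.00319). Csf1, a ligand of the receptor on which microglia depend for survival, was at 146, 90.2 and 99.5 and 31.5, 29.1 and 39.4 CPM (log2 fold change -1.75, SE 0.205, adjusted p = 0.00554). For both growth factors the groups were well separated, and replicate 1 of NLGF held the most Csf1. Ccl6, a chemokine, was at 2346, 2376 and 2621 CPM in NLGF and 927, 1033 and 1014 in the compound mutant (log2 fold change -1.30, SE 0.108, adjusted p = 0.00121), with little spread in either group. Serpine2, a secreted protease inhibitor, was at 2919, 2646 and 2391 and 1751, 1854 and 2079 CPM (log2 fold change -0.49, SE 0.084, adjusted p = 0.0326), a smaller gap with no overlap. The cystatin Cst7, an inhibitor of lysosomal proteases, was at 829, 706 and 933 and 91.6, 84.6 and 162 CPM (log2 fold change -2.87, SE 0.252, adjusted p = 0.0013), where replicate 3 of the compound mutant was highest.

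Surface and membrane members fell as well. Gpnmb, a lysosomal and surface glycoprotein, was at 49.4, 50.6 and 43.1 CPM in NLGF and 0.0377, 0.0318 and 0.0804 in the compound mutant (log2 fold change -9.87, SE 1.05, adjusted p = 0.00319). These compound values are at or near the level of 3 counts per library, so the fold rests on a handful of reads. Ank, a pyrophosphate transporter, was at 1019, 844 and 963 and 102, 139 and 177 CPM (log2 fold change -2.76, SE 0.187, adjusted p = 0.000274). The integrin gene Itgax, which encodes CD11c, was at 173, 143 and 175 and 7.7, 20.5 and 42.2 CPM (log2 fold change -2.81, SE 0.486, adjusted p = 0.0328), and compound replicate 3 was the highest of its group again. Clec7a, the beta-glucan receptor dectin-1, was at 596, 986 and 1245 and 181, 194 and 320.4 CPM (log2 fold change -2.02, SE 0.306, adjusted p = 0.0183), with a wide spread inside NLGF. Cadm1, an adhesion molecule, had a smaller and very even change, from 573, 537 and 506 to 294, 295 and 316 CPM (log2 fold change -0.84, SE 0.0742, adjusted p = 0.0013). The tetraspanin gene Cd63 was at 1648, 1854 and 1969 and 1131, 1034 and 1189.8 CPM (log2 fold change -0.71, SE 0.0901, adjusted p = 0.00769). Lilrb4a, an inhibitory receptor of a multigene family whose reads may be split between copies, was at 85.8, 82.2 and 35.3 and 11.3, 17.5 and 24.3 CPM (log2 fold change -1.93, SE 0.355, adjusted p = 0.0411).

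The 5 stage 2 members that were not called show where the list was uneven. Axl, a receptor for dying cells, was at 640.2, 460.0 and 481 CPM in NLGF and 47.3, 48.7 and 244 in the compound mutant. There was no overlap, but compound replicate 3 lay far above the other compound libraries, and the adjusted p was 0.158. Cd68 and Cd52 had no overlap either, at log2 fold changes of -0.63 and -0.66 with adjusted p of 0.0804 and 0.177. Cd9 (-0.29, adjusted p = 0.326) and Trem2 itself overlapped. Of the 25 members, replicate 3 of the compound mutant was highest in 20 and replicate 1 lowest in 15. Over all 129 lower genes, replicate 3 was highest in 72 and replicate 1 lowest in 67. Replicate 1 held the most neuron RNA and the least neutrophil RNA of the 3, and their part in this order was not tested.

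**Figure D3:**
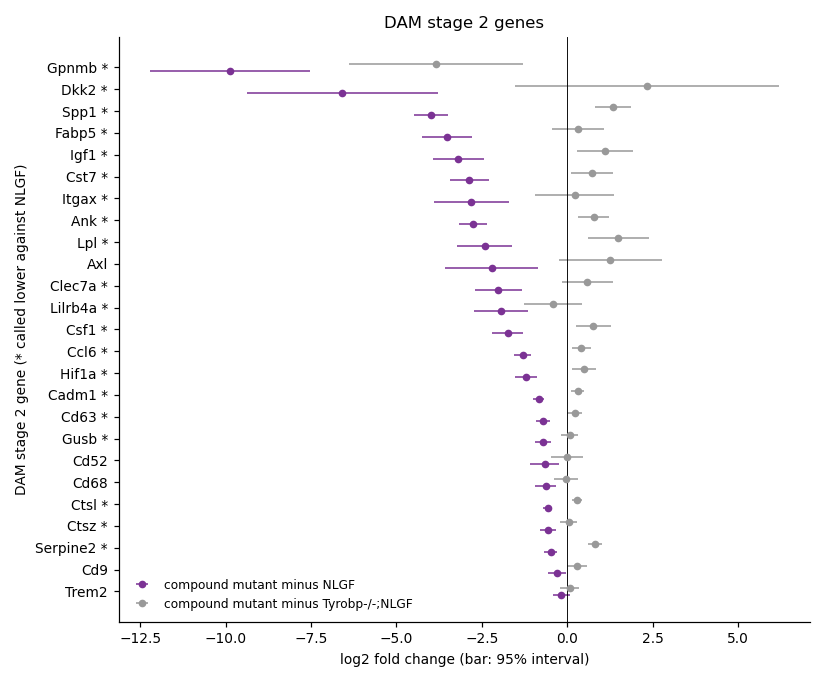
Log2 fold changes with 95% intervals for the 25 DAM stage 2 genes, against NLGF (purple) and against Tyrobp-/-;NLGF (grey), which both use the compound libraries. All 25 purple points are below 0, from Gpnmb at -9.87 to Trem2 at -0.17, and asterisks mark the 20 called lower.

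Genes of DAM stage 1, which microglia can reach without TREM2, changed less. Of 10 members 3 were called lower, beside 0.633% of all genes. They were Tyrobp itself and the cathepsins Ctsb and Ctsd, and the list median was -0.36. The 3 calls became 1 without any 1 of the NLGF libraries, without compound replicate 1 or 2, without Inpp5d+/-;NLGF replicate 2, without Tyrobp-/-;NLGF replicate 2, with 2 groups only and with the neutrophil or neuron covariate. Apoe, a lipid carrier of this list, was at 241, 286 and 352 CPM in NLGF and 97.7, 201 and 172 in the compound mutant and was not called (log2 fold change -0.90, adjusted p = 0.206).

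Further secreted and matrix genes fell outside the DAM lists. Of 38 tested members 10 were called lower, beside 0.633% of all genes, and none higher, with a list median of -0.58. Of those 10, 7 are also in the stage 2 list. Mamdc2, a secreted protein with MAM domains, was at 96.6, 83.7 and 70.2 CPM in NLGF and 2.07, 6.51 and 5.19 in the compound mutant (log2 fold change -4.18, SE 0.367, adjusted p = 0.0013). Postn, the matrix protein periostin, was at 6.75, 13.6 and 10.1 and 0.32, 0.0796 and 0.684 CPM (log2 fold change -4.82, SE 0.732, adjusted p = 0.0183). Anxa5, a phospholipid-binding annexin, was at 267, 266 and 212 and 103, 121 and 123 CPM (log2 fold change -1.10, SE 0.141, adjusted p = 0.00769). Nbl1, a secreted antagonist of bone morphogenetic proteins and no member of this list, was at 44.8, 33.3 and 45.4 and 9.08, 6.78 and 8.83 CPM (log2 fold change -2.32, SE 0.189, adjusted p = 0.00117). None of the 4 overlapped between groups. List members called lower numbered 4 with the neutrophil covariate and 6 without NLGF replicate 2 or without the 2 libraries with most S100a8. The list median was -0.37 without compound replicate 1 and -0.91 without compound replicate 3.

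Some genes of cholesterol synthesis fell. Of 25 cholesterol synthesis genes 4 were called lower, beside 0.633% of all genes, and none higher. In this list 22 had negative fold changes and 16 were lower without overlap, beside 8.92% of all genes. The median was -0.72, and summed levels were 943 to 987 CPM in NLGF and 558 to 643 in the compound mutant. Hmgcs1, which makes hydroxymethylglutaryl-CoA, was at 54.2, 57.1 and 49.6 CPM in NLGF and 22.2, 26.1 and 24.7 in the compound mutant (log2 fold change -1.14, SE 0.135, adjusted p = 0.00564). Sqle, the epoxidase that commits squalene to sterols, was at 20.7, 16.8 and 22.5 and 4.22, 1.99 and 4.26 CPM (log2 fold change -2.52, SE 0.436, adjusted p = 0.0326). Fdps, which makes farnesyl diphosphate, was at 25.9, 33.3 and 30.9 and 12.2, 12.8 and 8.97 CPM (log2 fold change -1.41, SE 0.254, adjusted p = 0.038), but its row overlaps another called gene on the same strand. Sc5d, a late sterol desaturase, was at 84.4, 87.1 and 120.2 and 25.3, 46.4 and 43.6 CPM (log2 fold change -1.34, SE 0.251, adjusted p = 0.0452). Of the 4, Hmgcs1 alone was called without the 2 libraries with most S100a8, and the list median was -0.86. In the list 1 member was called with the neutrophil or neuron covariate, with 2 groups only, and without any 1 of the NLGF or Tyrobp-/-;NLGF libraries, compound replicate 1 or 3 or Inpp5d+/-;NLGF replicate 2, while 2 were called without Inpp5d+/-;NLGF replicate 3 and 13 with DESeq2. Over these settings the median was -0.70 to -0.83.

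These genes are classic targets of SREBP transcription factors, which bind sterol regulatory elements. The RefSeq promoter table for GRCm38.p6 holds 17 of the 25 cholesterol genes. The letters TCACNCCAC, searched on both strands from 250 bases before to 50 bases after each start, occur in 1 of these 17 and in 1.44% of 27025 genes in the table. That gene is Hmgcs1, which is shown because it has the smallest p of the called sterol genes, with the match in capitals in the 250 bases before its start:
Hmgcs1 promoter, chr13:119690101-119690350, + strand: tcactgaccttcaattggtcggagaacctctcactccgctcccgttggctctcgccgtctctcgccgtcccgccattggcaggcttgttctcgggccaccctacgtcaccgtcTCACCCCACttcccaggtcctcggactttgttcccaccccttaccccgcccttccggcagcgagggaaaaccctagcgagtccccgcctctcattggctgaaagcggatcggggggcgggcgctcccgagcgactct
A match of this kind describes letters and not binding.

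Of 35 genes in a lipid-handling list 5 were called lower and 1 higher, beside 0.633% and 0.24% of all genes, with a median of -0.20. Fabp5, a fatty acid binding protein, was at 77, 135 and 95.9 CPM in NLGF and 9.42, 9.65 and 7.5 in the compound mutant (log2 fold change -3.53, SE 0.328, adjusted p = 0.00152). Lpl, lipoprotein lipase, was at 384, 299 and 323 and 35.4, 48 and 105 CPM (log2 fold change -2.42, SE 0.359, adjusted p = 0.017), and its compound replicate 3 was again the highest. Both are also stage 2 genes. Scd2, a fatty acid desaturase, was at 217, 180.5 and 165 and 72.5, 60.2 and 55.7 CPM (log2 fold change -1.58, SE 0.174, adjusted p = 0.0039). Nceh1, which hydrolyses cholesteryl esters, was at 182, 172 and 159 and 71, 63.9 and 87 CPM (log2 fold change -1.21, SE 0.161, adjusted p = 0.01), and Scarb1, the HDL receptor, at 170.3, 112 and 128 and 68.8, 73.9 and 70.5 CPM (log2 fold change -0.94, SE 0.161, adjusted p = 0.0317). The higher member was Atf3, a gene for a stress-induced transcription factor and not for a lipid enzyme or carrier. It was at 74.6, 75 and 59.1 CPM in NLGF and 112, 147 and 130.0 in the compound mutant (log2 fold change 0.90, SE 0.138, adjusted p = 0.0196). In all 6, the groups did not overlap. With the neutrophil covariate 1 list member was called lower and none higher, and 3 were lower and none higher without compound replicate 2 or without the 2 libraries with most S100a8. None was called higher without NLGF replicate 2 or 3 or compound replicate 3 either, and 2 were without Inpp5d+/-;NLGF replicate 3.

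Of 49 lysosomal genes, 7 were called lower and 1 higher, beside 0.633% and 0.24% of all genes, with a median of -0.18. The lower ones were the proteases Ctsb, Ctsd, Ctse, Ctsl and Ctsz, the glucuronidase Gusb and the tetraspanin Cd63, several of which are also in the DAM lists. Ctsb was at 8225, 7696 and 7842 CPM in NLGF and 5211, 5202 and 6563 in the compound mutant (log2 fold change -0.49, SE 0.0914, adjusted p = 0.0461). Ctsl was at 3643, 3386 and 3795 and 2404, 2359 and 2537 CPM (log2 fold change -0.57, SE 0.0586, adjusted p = 0.003). Both decreases were below 1.5-fold, with no overlap between groups. Ctsd was at 25921, 26206 and 27018 and 20143, 19939 and 21839.6 CPM (log2 fold change -0.35, SE 0.0624, adjusted p = 0.0349). Sgsh, which removes sulfate from heparan sulfate, was higher, at 8.82, 8.84 and 9.05 CPM in NLGF and 25.9, 21.4 and 18.8 in the compound mutant (log2 fold change 1.31, SE 0.242, adjusted p = 0.0428). No lysosomal gene was called with the neutrophil covariate, 2 were called lower without the 2 libraries with most S100a8, and the medians were -0.24 and -0.22. Leaving out single libraries gave 2 to 7 lower calls, with 4 or fewer except without Inpp5d+/-;NLGF replicate 1 or compound replicate 3, and a higher call only without Inpp5d+/-;NLGF replicate 1 or 3.

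Lysosomal genes often carry a site for TFEB and related factors around the letters CACGTG. The 8 letters TCACGTGA, which read the same on both strands, occur in 6 of the 37 lysosomal genes in the promoter table and in 1.12% of all genes there. Of the 6 called genes that the table holds, 1 has them, Ctsd, whose upstream 250 bases are shown with the match in capitals:
Ctsd promoter, chr7:142387828-142388077, - strand: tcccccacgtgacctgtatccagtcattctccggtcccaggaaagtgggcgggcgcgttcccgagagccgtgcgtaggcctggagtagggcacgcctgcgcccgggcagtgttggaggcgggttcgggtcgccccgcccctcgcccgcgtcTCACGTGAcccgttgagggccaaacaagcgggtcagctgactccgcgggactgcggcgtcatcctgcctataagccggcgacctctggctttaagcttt

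No glycolysis gene was called among 24, although 20 had negative fold changes and 11 were lower without overlap, beside 8.92% of all genes, with a median of -0.42. With DESeq2 7 were called lower. In edgeR's test 3 members had an adjusted p below 0.1. Examples chosen after their values were seen are Pfkl, which encodes the liver phosphofructokinase subunit, at 193, 175 and 222 CPM in NLGF and 124, 137 and 153 in the compound mutant (adjusted p = 0.095), and the glucose transporter gene Slc2a1, at 169.7, 161 and 178 and 116, 109 and 106 CPM (adjusted p = 0.113).

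Of 40 transcription factor genes 2 were called, both lower, beside 0.633% of all genes, with a median of 0.00. Bhlhe40, a helix-loop-helix repressor, was at 60.7, 62.5 and 72.4 CPM in NLGF and 2.49, 4.86 and 4.93 in the compound mutant (log2 fold change -3.99, SE 0.375, adjusted p = 0.00159), with the antisense row 0610040F04Rik falling beside it. Hif1a, the oxygen-regulated factor, was at 504, 468 and 446 and 160.3, 232.9 and 223 CPM (log2 fold change -1.20, SE 0.142, adjusted p = 0.00563). Neither gene had an overlap between groups.

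Other receptors, transporters and enzymes fell. Siglecf, a sialic acid binding receptor, was at 119, 108 and 163 CPM in NLGF and 43.8, 33.3 and 43.5 in the compound mutant (log2 fold change -1.69, SE 0.181, adjusted p = 0.00319). It was 1 of 3 called lower among 40 TYROBP-coupled and paired receptors, beside 0.633% of all genes. The list median was 0.61 with 29 members positive, and 0.20 with the neutrophil covariate. No member of that list was called higher here, against 10 with DESeq2, 2 with the stricter filter, and 1 with limma-voom, without compound replicate 1 or without Inpp5d+/-;NLGF replicate 1. The 3 lower calls became 1 with the neutrophil covariate and without NLGF replicate 2 or compound replicate 1 or 2. Their sequences resemble one another and reads may be shared. Slc11a1, a metal transporter of phagosomes, was at 993, 992 and 1065 and 579.8, 513 and 659.6 CPM (log2 fold change -0.80, SE 0.103, adjusted p = 0.008), and Tmem163, a zinc transporter, at 26, 19.4 and 30 and 0.716, 2.45 and 1.01 CPM (log2 fold change -4.17, SE 0.479, adjusted p = 0.00498). Psat1, an enzyme of serine synthesis, was at 246, 295 and 265 and 130.3, 128 and 112 CPM (log2 fold change -1.12, SE 0.106, adjusted p = 0.00159). Aplp2, a relative of App, was at 425, 306 and 346 CPM in NLGF and 118, 124 and 139.5 in the compound mutant (log2 fold change -1.50, SE 0.138, adjusted p = 0.00152).

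**Figure D4:**
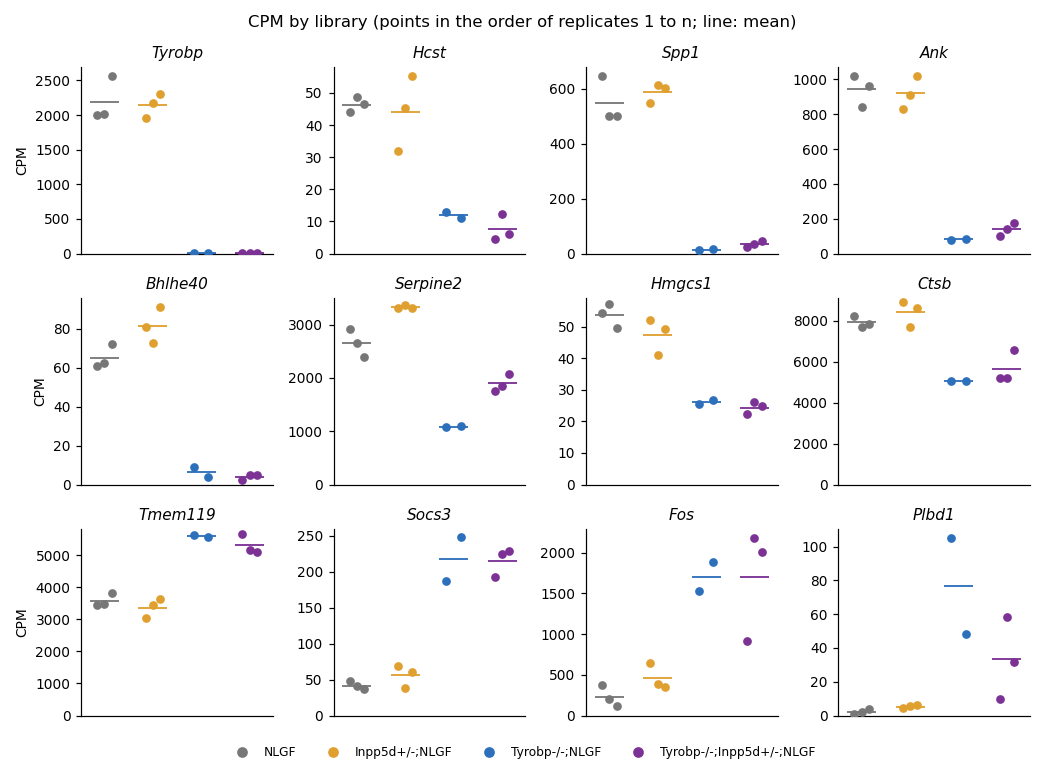
CPM of 12 genes in each of the 11 libraries, 1 point per library, with a line at each group mean and each axis starting at 0. The Socs3 points of the compound mutant lie between 192 and 229 CPM and those of NLGF between 36.6 and 47.9, and Plbd1 follows a different order of libraries.

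The higher genes were fewer. Of 35 homeostatic microglia genes 4 were called higher, beside 0.24% of all genes, and none lower, with a median of 0.15 and 22 positive. Tmem119, a microglia-specific surface protein, was at 3454, 3472 and 3827 CPM in NLGF and 5669, 5171 and 5085 in the compound mutant (log2 fold change 0.57, SE 0.0757, adjusted p = 0.01). Cst3, the secreted cystatin C, was at 15024, 14256 and 17611 and 22159, 20892 and 24198 CPM (log2 fold change 0.52, SE 0.0917, adjusted p = 0.0349). Sparc, a matrix-associated protein, was at 2877, 3028 and 3137 and 4168, 4011 and 4265 CPM (log2 fold change 0.46, SE 0.063, adjusted p = 0.0112), and Crybb1, a crystallin found in microglia, at 83.9, 109.9 and 140.3 and 272, 243 and 229 CPM (log2 fold change 1.15, SE 0.189, adjusted p = 0.0262). No other member was called. With the neutrophil covariate or without the 2 libraries with most S100a8, none of the 4 was called, at list medians of 0.18 and 0.14. None was called without NLGF replicate 2 either (median 0.08), and 2 members were without compound replicate 1 or 2.

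Immediate early genes, which respond within minutes to stimulation and also to tissue dissociation, were among the higher calls. Of 38 members 9 were called higher and 1 lower, beside 0.24% and 0.633% of all genes. Positive fold changes numbered 35, and 18 members were higher without overlap, beside 9.04% of all genes, with a median of 0.75. Fos was at 371, 206 and 117 CPM in NLGF and 918, 2183 and 2013 in the compound mutant (log2 fold change 2.88, SE 0.465, adjusted p = 0.0245). The lowest compound library, replicate 1, was still well above the highest NLGF library. Junb, its partner in the AP-1 factor, was at 290.2, 306 and 244 and 540.0, 603 and 644 CPM (log2 fold change 1.09, SE 0.134, adjusted p = 0.00716). Dusp1, a phosphatase that switches off MAP kinases, was at 811, 431 and 233.2 and 1687, 3085 and 2469 CPM (log2 fold change 2.30, SE 0.438, adjusted p = 0.0479). Dusp2, a related phosphatase, was at 8.01, 5.51 and 6.79 and 21.8, 19.4 and 32.7 CPM (log2 fold change 1.86, SE 0.265, adjusted p = 0.0137). Egr1 was at 208, 149 and 79.8 and 401, 578 and 717 CPM (log2 fold change 1.96, SE 0.338, adjusted p = 0.0325), while its relative Egr2 moved the other way, at 58, 55.3 and 42.9 CPM in NLGF and 13.2, 8.82 and 16.5 in the compound mutant (log2 fold change -2.02, SE 0.316, adjusted p = 0.0208). Zfp36, an RNA-binding protein that speeds decay of cytokine messages, was at 306, 194 and 178 and 415, 646 and 739 CPM (log2 fold change 1.41, SE 0.266, adjusted p = 0.0461). The NLGF values of Fos and Dusp1 spread widely, with replicate 1 highest and replicate 3 lowest for both. Without the 2 libraries with most S100a8, 2 members were called higher (median 0.58). With the neutrophil covariate none was (median 0.95), and with 2 groups only there was 1 (median 0.76). Leaving out single libraries gave 1 without NLGF replicate 2, 2 without NLGF replicate 3 or compound replicate 2, 3 without compound replicate 3, 5 without either Tyrobp-/-;NLGF library and 6 to 10 without any other.

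The cyclic AMP response element TGACGTCA occurs in 4 of the 32 immediate early genes in the promoter table and in 2.03% of all genes there. Of the 9 called members in the table, 1 holds it, Dusp1, whose upstream 250 bases are shown with the match in capitals:
Dusp1 promoter, chr17:26508473-26508722, - strand: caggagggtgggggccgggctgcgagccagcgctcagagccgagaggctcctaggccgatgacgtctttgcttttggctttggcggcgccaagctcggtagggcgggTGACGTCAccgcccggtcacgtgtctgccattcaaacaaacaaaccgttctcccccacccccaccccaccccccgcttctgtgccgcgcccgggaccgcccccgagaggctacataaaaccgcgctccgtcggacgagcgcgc

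Socs3, the feedback inhibitor of cytokine receptors that signal through STAT3 (ENSMUSG00000053113.3, chromosome 11, 117966079 to 117970047), was the higher gene with the smallest p. It was at 47.9, 40.5 and 36.6 CPM in NLGF and 192, 224 and 229 in the compound mutant (log2 fold change 2.37, SE 0.22, adjusted p = 0.00152). It was the single call of 23 JAK-STAT feedback genes, beside 0.24% of all genes called higher. The list median was 0.11, beside 0.03 over all genes. Id2, an inhibitor of helix-loop-helix factors, was at 127, 118 and 137 and 274, 252 and 247 CPM (log2 fold change 1.01, SE 0.11, adjusted p = 0.0036). Kdm6b, a histone demethylase induced in macrophages, was at 10.2, 11.4 and 6.27 and 31.6, 29.3 and 27.3 CPM (log2 fold change 1.66, SE 0.259, adjusted p = 0.0208). The groups did not overlap for these 3 genes, and the NLGF values of Kdm6b were the most spread. Malat1, a nuclear long non-coding RNA, was at 1284, 943 and 856 CPM in NLGF and 2952, 2131 and 2354 in the compound mutant (log2 fold change 1.27, SE 0.183, adjusted p = 0.0144). Alox5ap, the activator of leukotriene synthesis, was at 132, 161 and 167 and 293, 285 and 242 CPM (log2 fold change 0.84, SE 0.125, adjusted p = 0.0174), and an overlapping antisense row rose with it. Rgs2, a brake on G-protein signals that was chosen, like Alox5ap, after its values were seen, was at 683, 538 and 594 and 885, 928 and 945 CPM (log2 fold change 0.60, SE 0.114, adjusted p = 0.0468).

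Immune genes among the higher calls were scattered over lists that otherwise had few calls. Fcgr1, a high-affinity receptor for IgG, was at 331, 342 and 379.9 CPM in NLGF and 551, 460.4 and 501 in the compound mutant (log2 fold change 0.52, SE 0.0904, adjusted p = 0.0326). Ccl12, a monocyte chemoattractant, was at 119.8, 104 and 126 and 272, 184 and 333 CPM (log2 fold change 1.17, SE 0.202, adjusted p = 0.0325), and Ccl6 fell. Of 26 chemokine genes 1 was thus called higher and 1 lower, beside 0.24% and 0.633% of all genes. The chemokine median was 0.85, beside 0.03 over all genes. Ifi30, a thiol reductase of antigen processing, was at 60.9, 55.3 and 60.9 and 99.2, 109 and 109.7 CPM (log2 fold change 0.84, SE 0.132, adjusted p = 0.0208). It was the single call of 12 MHC class II genes, beside 0.24% of all genes called higher, and the list median was 0.03. Ptpn22, a phosphatase that restrains immune receptor kinases, was at 0.0962, 0 and 0.255 CPM in NLGF and 9.17, 5.81 and 2.71 in the compound mutant (log2 fold change 5.51, SE 0.927, adjusted p = 0.0307), and in the other genotypes at 9.34, 5.36 and 2.51 (Inpp5d+/-;NLGF) and 8.32 and 7.03 (Tyrobp-/-;NLGF). It was low in NLGF alone. Plbd1, a phospholipase found in neutrophils and monocytes, was at 1.17, 2.1 and 3.91 and 9.95, 58.6 and 31.9 CPM (log2 fold change 3.80, SE 0.675, adjusted p = 0.035), in the same order of compound libraries as S100a8 at 94, 3645 and 783 CPM. With the neutrophil covariate the log2 fold change of Plbd1 was 1.89 with an adjusted p of 0.126. The other higher genes named here were not called with that covariate either. Their adjusted p was 0.192 for Fcgr1, 0.174 for Ccl12, 0.227 for Ifi30 and 0.108 for Ptpn22, at log2 fold changes of 0.55, 1.26, 0.71 and 5.65. With limma-voom Ptpn22 and Plbd1 were not called (adjusted p of 0.143 and 0.147).

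Lists without a call included interferon response (37 tested, median 0.49), inflammatory cytokines (31, median 0.45), MHC class I (15, median 0.10), TGF-beta (25, median 0.16), proliferation (40, median -0.17), cytosolic ribosomal proteins (78, median -0.19) and oxidative phosphorylation (56, median -0.09). Tnf, the cytokine of the second list, was at 4.42, 4.24 and 3.76 CPM in NLGF and 18.3, 14.2 and 14.2 in the compound mutant with no overlap (adjusted p = 0.0699). Over all genes 0.873% were called, so 0 calls in lists of these sizes is near that share. Of the interferon response genes 32 of 37 had positive fold changes, beside 10647 of the 20390 genes tested. Higher without overlap were 10 of them, beside 9.04% of all genes. For the inflammatory cytokines 25 of 31 were positive and 8 were higher without overlap. Of the ribosomal protein genes 75 of 78 had negative fold changes, beside 9677 of the 20390 genes tested. Lower without overlap were 18 of the 78, beside 8.92% of all genes.

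**Figure D5:**
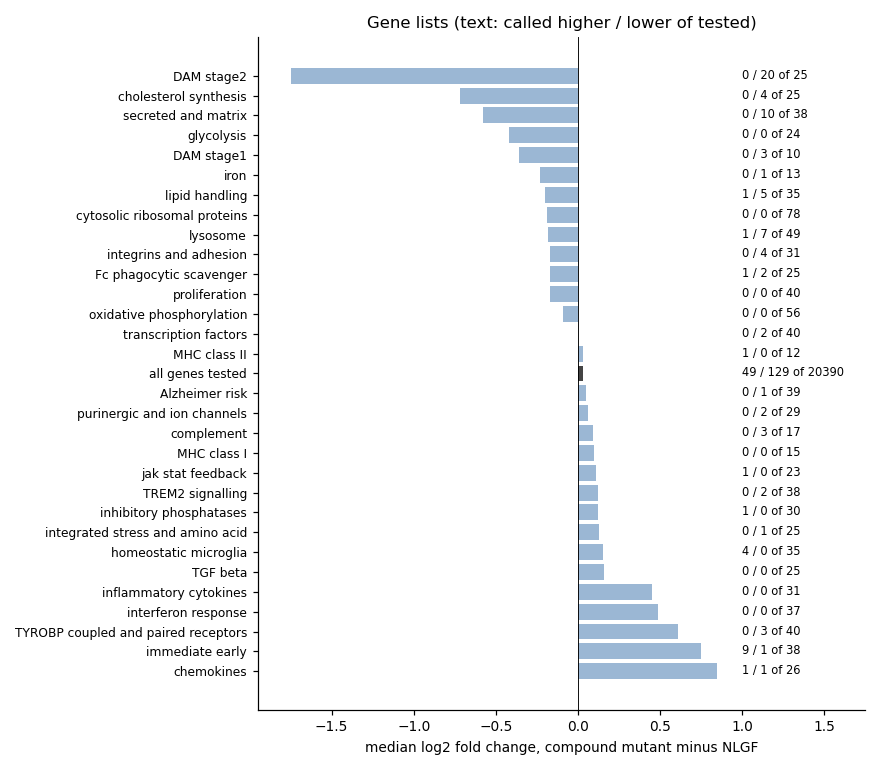
Median log2 fold change of the compound mutant minus NLGF for the gene lists and for all genes tested (dark bar, 0.03), with the number called higher and lower of those tested beside each bar. The marker lists of other cell types are not shown. Of the lists shown, DAM stage 2 has the lowest median, at -1.75, and chemokines the highest, at 0.85.

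Some calls rest on rows that share sequence. Of the 178 called genes 30 form 15 overlapping pairs, and how the counting treated overlapping genes is not given in the sources used here. In 2 pairs the second row is a microRNA hairpin inside its host gene on the same strand, Mir7117 in Ank and Mir5114 in Scd2. Mir7117 was at 1.97, 2.27 and 1.91 CPM in NLGF and 0.339, 0.271 and 0.362 in the compound mutant, and Mir5114 at 7.52, 6.04 and 5.09 and 2.02, 1.35 and 1.53. Both moved with their hosts, and the reads cannot be told from those of the host transcripts, so no microRNA level follows. The RefSeq hairpins (GRCm38.p6) are shown to locate these rows, with mature sequences in capitals:
Mir7117 hairpin, chr15:27571494-27571558, + strand: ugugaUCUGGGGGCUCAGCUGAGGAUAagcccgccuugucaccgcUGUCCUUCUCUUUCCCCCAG
Mir5114 hairpin, chr19:44303171-44303231, + strand: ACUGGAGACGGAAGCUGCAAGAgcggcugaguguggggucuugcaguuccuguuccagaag
Ctsd and Spp1 are also in such pairs, with Gm49369 and Gm42793.

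Of the called genes, 4 had no counts in any library of 1 group. Hs3st1, a heparan sulfate sulfotransferase, had 0 counts in the compound mutant and was at 4.09, 15.8 and 3.88 CPM in NLGF, at least 144-fold lower against a floor of 3 counts per library. Plxna2, a semaphorin receptor, was at 1.57, 11.6 and 1.48 CPM in NLGF and at 0 in the compound mutant, at least 89.1-fold lower, with NLGF replicate 2 far above the other NLGF libraries. Slc25a24, a mitochondrial carrier, had 0 counts in NLGF and 1.51, 6.49 and 0.844 CPM in compound libraries, which is at least 45.1-fold higher. The fourth was Gm47088, and these 4 are named because of the zero counts, after their values were seen. Of 24 other settings of the fit, Hs3st1 was called in 20, Gm47088 in 11, Slc25a24 in 8 and Plxna2 in 7.

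Genes near the targeted loci were counted apart. Within 10 Mb of Tyrobp, 293 other genes were tested and 6 were called (2.05%, beside 0.873% over all genes). The called genes there included Zfp36, Gmfg, Lgi4 and Fxyd3, which were higher, and Hcst, which was lower. Lgi4, a secreted protein of glia (ENSMUSG00000036560.14, chromosome 7, 31059342 to 31070935), was at 2.18, 2.84 and 1.62 CPM in NLGF and 25.1, 14.3 and 19.5 in the compound mutant (log2 fold change 3.15, SE 0.401, adjusted p = 0.00769), and Fxyd3, whose row overlaps it, at 1.22, 1.54 and 1.02 and 12.8, 6.99 and 9.11 CPM. Lgi4 was at 18.9 and 16.4 CPM in Tyrobp-/-;NLGF and 1.45, 1.99 and 0.72 in Inpp5d+/-;NLGF. Within 10 Mb of Inpp5d, 194 other genes were tested and 2 were called, Serpine2 and Fam174a, both lower (1.03%).

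The compound mutant was then set against Tyrobp-/-;NLGF, which asks what the Inpp5d+/- genotype adds when Tyrobp is lost. Of 20390 genes 2 were called, both higher (0.00981%), and none lower, while 831 had an unadjusted p below 0.05 (4.08%). Mamdc2 was at 0.0996 and 0.074 CPM in Tyrobp-/-;NLGF and 2.07, 6.51 and 5.19 in the compound mutant (log2 fold change 5.69, 95% interval 4.38 to 7.01, adjusted p = 0.0441). These Tyrobp-/-;NLGF values are near the level of 3 counts in those libraries (0.0597 and 0.0555 CPM), so the size of the fold rests on few reads. Fzd9, a Wnt receptor, was at 0 in both Tyrobp-/-;NLGF libraries, 2.39, 2.09 and 1.33 CPM in the compound mutant and 3.25, 6.74 and 3.66 CPM in NLGF (adjusted p = 0.0441). For both genes the compound libraries lay between Tyrobp-/-;NLGF and NLGF. With limma-voom, with the neutrophil covariate and without the 2 libraries with most S100a8 no gene was called, and leaving out single libraries gave 0 to 1.

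The stage 2 genes had a median log2 fold change of 0.31 in this comparison, beside 0.01 over all genes, with no member called. The comparison shares the compound libraries with that against NLGF. Serpine2 was at 1073 and 1089 CPM in Tyrobp-/-;NLGF (log2 fold change of the compound mutant 0.81, 95% interval 0.59 to 1.02, adjusted p = 0.0589). Spp1 was at 11.5 and 15.9 CPM there (1.34, 0.82 to 1.87, adjusted p = 0.566), and Cst7 at 67.6 and 69.2 (0.72, 0.12 to 1.32, adjusted p = 1). The compound libraries of these 3 genes were all above both Tyrobp-/-;NLGF libraries. The 3 are examples from the list and none passed, and the intervals in this paragraph are not adjusted for the number of genes. Serpine2 lies within 10 Mb of Inpp5d, whose genotype differs in this comparison, and the part of that position was not tested. For some other members the interval included 0, as for Clec7a (-0.17 to 1.33) and Ctsz (-0.22 to 0.30), and Gpnmb had the opposite sign (-3.84, -6.38 to -1.30). No cholesterol gene was called either, with a list median of -0.07, and the median of the immediate early genes was 0.06.

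The interaction of the genotypes asks whether the effect of Inpp5d+/- differs with and without Tyrobp. No gene passed (0%), and 958 had an unadjusted p below 0.05 (4.7%), while DESeq2 called 36. For Spp1 the interaction was 1.25 (95% interval 0.57 to 1.93, adjusted p = 1), and for Serpine2 0.48 (0.20 to 0.76, adjusted p = 1). Neither passed, and these intervals are not adjusted for the number of genes. The genes are examples from the stage 2 list, and its other members are not reported here. Serpine2 also lies within 10 Mb of Inpp5d, and the part of that position was not tested.

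The 2 Tyrobp-/-;NLGF libraries and the 3 Inpp5d+/-;NLGF libraries take no part in the comparison with NLGF, and give a difference between Tyrobp genotypes of their own. In Tyrobp-/-;NLGF minus Inpp5d+/-;NLGF, 83 genes were called higher (0.407%) and 146 lower (0.716%). Of the 49 genes called higher in the compound mutant, 48 had the same sign there and 25 were called. Of the 129 lower genes, 126 had the same sign and 78 were called. Over all genes 50.1% and 49.2% had these signs. The medians were 0.74 for the higher genes, beside 1.01 in the compound mutant, and -1.27 for the lower genes, beside -1.30. All libraries share 1 model and 1 estimate of spread, and title numbers separate the Tyrobp genotypes in this difference too. The neutrophil markers also differ in it, with sums of 4273 to 18538 CPM in Tyrobp-/-;NLGF and 52.1 to 183 in Inpp5d+/-;NLGF. Monocyte markers summed to 704 to 2618 and 23.5 to 103 CPM. The part of these cells in the shared signs was not tested.

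All 178 calls kept their sign in each of the 24 other settings in which they could be tested. Called in every such setting were 4 higher genes (Socs3, Lgi4, Fxyd3 and Gm25994) and 19 lower genes, among them Spp1, Ank, Bhlhe40, Cst7, Fabp5, Igf1, Gpnmb, Mamdc2, Ccl6, Psat1, Aplp2, Nbl1 and Tmem163. The 178 genes were called from these same libraries. Several settings change only the threshold or leave out none of the compared libraries, so the kept signs are no independent support. With the neutrophil covariate 6 genes were called higher and 29 lower, and the median of the 49 higher genes went from 1.01 (median SE 0.159) to 1.06 (0.201) and that of the 129 lower genes from -1.30 (0.193) to -1.37 (0.27). Without the 2 libraries with most S100a8, 12 were called higher and 52 lower, at medians of 1.03 and -1.33 for the same 49 and 129 genes.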

How the data were processed

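Per the labels' protocols, libraries of sorted microglia were made with SMART-Seq v4, an unstranded full-length cDNA kit. The submitters' processing notes name featureCounts 1.6.4, STAR 2.7.3a and the builds mm10 and GRCm38.p6. The authors deposited unnormalised whole-number read counts per gene. Which annotation release was counted, and how multiply mapped reads were treated, is not given in the sources used here. All 37 rows of chromosome M held 0 counts.

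Genes were kept by filterByExpr (minimum count 10, minimum total 15). One edgeR 4.0.16 model (glmQLFit, glmQLFTest, TMM) in R 4.3.3 covered the 11 libraries, so the 4 groups share the estimate of spread. Genes were adjusted over all 20390 (Benjamini-Hochberg). Nothing says libraries came from separate animals, so p values measure the spread between libraries, and floors cover counting error only. Limits of 95% come from the same model. In simulated data for this comparison (20388 genes), 200 genes in all were changed, picked from a subset of 10460. Each was changed at 1 of the folds 1.5, 2 and 4, so each fold had only a part of the 200. Of the changes at each fold, 1.49% were called at 1.5-fold, 28.4% at 2-fold and 69.7% at 4-fold. Genes outside the subset were given no change, and these rates do not cover them.

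Lists and named genes were chosen with earlier results of these data known. Named were Tyrobp, Inpp5d, Trem2, App and Hcst. Among called, non-overlapping genes with at least 5 CPM, up to 15 per direction were eligible by fold, 10 by p and 8 by CPM difference, with list members, called neighbours and calls of the other comparisons. Alternatives were other scaling, filters, DESeq2 1.42.0, limma-voom (limma 3.58.1), 2 groups only, a fold threshold of 1.5, a threshold of 0.1, marker covariates and each library left out. The fit without the 2 libraries with most S100a8 was chosen after seeing the data. Some called genes are counted in the totals and are not reported by name here.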

Additional observations from a re-analysis of the deposited data

Results flagged for a closer look

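The difference between the compound mutant and Tyrobp-/-;NLGF itself passed edgeR's test for 2 genes, a difference between 2 genotypes that both lack Tyrobp. Mamdc2 had a log2 fold change of 5.69, with all 3 compound libraries above both Tyrobp-/-;NLGF libraries. Both Tyrobp-/-;NLGF values of Mamdc2 are near the level of 3 counts per library, so the size of its fold rests on few reads. Fzd9 had a fitted log2 fold change of 9.62, which depends on the prior count because both Tyrobp-/-;NLGF libraries hold 0 counts of it. The interaction term was 5.77 for Mamdc2 (adjusted p = 0.0779) and 10.39 for Fzd9 (adjusted p = 0.0779), so neither passed there.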

How the results depend on the processing

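No paired analysis was possible because the labels give no shared replicate numbers. The 178 calls against NLGF (49 higher, 129 lower) became 1008 (470 and 538) with DESeq2, 339 (100 and 239) at an adjusted p below 0.1, 111 (29 and 82) with a neuron covariate, 56 (11 and 45) with 2 groups only, 40 (4 and 36) with a fold threshold of 1.5, 35 (6 and 29) with a neutrophil covariate and 64 (12 and 52) without the 2 libraries with most S100a8. Leaving out 1 library gave 62 to 151 (9 to 45 higher, 53 to 125 lower). The share of higher calls was 27.5%, 28.2% with RLE scaling, 24.9% with upper-quartile scaling and 46.6% with DESeq2. The 2 calls against Tyrobp-/-;NLGF became 1 without a filter, 50 with DESeq2, 1 with the neuron covariate, 0 with limma-voom, the neutrophil covariate or without the 2 libraries with most S100a8, and 0 to 1 without 1 library. The 0 calls of the interaction became 2 with the stricter filter and at the looser threshold, 36 with DESeq2, 1 with the neuron covariate and 0 to 1 without 1 library. Fits that leave 1 Tyrobp-/-;NLGF library assume that its spread equals that of the others. The cause of these shifts was not tested. Of 2532 pairs of a named gene and a setting, 1880 kept direction and side of the threshold, 629 were no longer called, 19 were newly called and 4 reversed. The reversals concern genes that were not called: Elovl1 (0.06 with the neutrophil covariate, -0.11 to 0.05 without 1 library), Hacd3 (-0.06 with the neutrophil covariate) and App (-0.14 to 0.02 without 1 library).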

Other observations

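Enzymes that lengthen fatty acids were looked at after their values were seen. Hacd2, which removes water from the growing acyl chain, was at 138, 142 and 168 CPM in NLGF and 61.8, 69.7 and 76.5 in the compound mutant (log2 fold change -1.11, SE 0.137, adjusted p = 0.0072). Hsd17b12, the reductase of an earlier step, was at 201, 198 and 208 and 118, 126 and 137 CPM (log2 fold change -0.67, SE 0.0895, adjusted p = 0.01). Tecr, the reductase of the last step, was at 346, 348 and 329 and 246, 251 and 246 CPM (log2 fold change -0.46, SE 0.0877, adjusted p = 0.0479). The groups did not overlap for these 3 genes. The elongases Elovl1 (-0.04, adjusted p = 0.937) and Elovl5 (-0.22, adjusted p = 0.538) were not called, nor was Hacd3 (0.06, adjusted p = 0.925).

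Several surface receptors outside the lists also fell and are named after their values were seen. Csf2ra, the alpha chain of the GM-CSF receptor, was at 67.2, 68.1 and 58.2 CPM in NLGF and 33.4, 30.8 and 41.6 in the compound mutant (log2 fold change -0.87, SE 0.145, adjusted p = 0.0296). Gpr65, a proton-sensing receptor, was at 53.2, 56.3 and 53 and 22.9, 27.9 and 22.2 CPM (log2 fold change -1.15, SE 0.173, adjusted p = 0.0174). Hcar2, a receptor for butyrate and ketone bodies, was at 103, 132 and 134 and 38.5, 40 and 40.3 CPM (log2 fold change -1.64, SE 0.308, adjusted p = 0.0461).

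Ct55, named for the same reason, had 1.6, 2.9 and 4.63 CPM in NLGF. The Tyrobp-/-;NLGF libraries held 1.1 and 1.31 CPM. Compound libraries held 0, 0.0159 and 0 CPM, so that 2 had no count of it. Against Tyrobp-/-;NLGF its adjusted p was 0.101.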
